A study of Mus musculus with 8 samples.

Results

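Brd2, Brd8, Kdm1a, Mta1 and Smc5 encode proteins that read, modify, remodel or hold together chromatin, and the splicing of their transcripts was followed after loss of the splicing factor SRSF3. They were chosen by gene name with their change in splicing already known, so the values that chose them are given as a description and no test was run on them. These 5 genes were among 638 named genes, and they held 6 of 1360 deposited rows, 3 of 862 local splicing variations and 3 of 498 junction-usage events. The material was cultured liver hepatocytes of C57BL/6J mice, all of them carrying floxed Srsf3 alleles and all exposed for 48 h to an infecting adeno-associated virus (AAV). In the AAV-Cre group (4 libraries, genotype label Srsf3-KO) the virus expressed Cre recombinase, which deletes the floxed sequence, and in the AAV-GFP group (4 libraries, genotype label Srsf3-flox) it expressed green fluorescent protein. The sources used here give neither the promoter in the virus nor the animals behind each library. The measure was percent spliced in (PSI), here the share from 0 to 1 that a junction or retained intron takes among the alternatives at 1 exon.

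Both tables hold 1 value per group or per comparison, so library depth and the spread between libraries are unknown and no SD can be given. RNA levels, among them hepatocyte markers, were not analysed here. For Srsf3 itself, the authors' deposited table puts the junction between the leading pair of exons at a PSI of 0.998 with GFP and 0.157 with Cre, the direction the group labels call for.

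SRSF3 is an SR protein, one of a class of RNA-binding factors that promote or repress the use of nearby exons, and it is known to bind short pyrimidine-rich sequences. An exon whose length is a multiple of 3 can be added or dropped without moving the reading frame, which gives proteins that differ by a stretch of amino acids. An exon of another length shifts the frame and usually brings a premature stop codon. A stop that lies more than about 50 nt before the last exon junction marks a transcript for nonsense-mediated decay, and an exon or extension that brings such a stop is often called a poison exon. Genes of RNA-binding regulators are known for using both kinds of event.

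BRD2 is a BET protein, a reader that binds acetylated histones through paired bromodomains. Exon 6 of its 13 exons (chr17:34115362-34115576, mm10, minus strand, 215 nt, coding) was joined from the exon before it at a PSI of 0.996 with GFP and 0.730 with Cre, per the authors' deposited table. The junction that passes over this exon took 0.002 with GFP and 0.210 with Cre, per the authors' deposited table. The remaining alternative, retention of the 91-nt intron between these exons (34115577 to 34115667), had 0.002 with GFP and 0.063 with Cre. An exon used almost throughout in AAV-GFP was thus left out, or preceded by its intron, in a minority of the AAV-Cre signal. Among the 2 spliced junctions alone, inclusion was 0.998 with GFP and 0.777 with Cre. All 4 coding transcripts of GENCODE vM21 that span the exon hold it, and the junction that passes over it is in no vM21 transcript of the gene.

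The 215-nt length leaves a remainder of 2 when divided by 3, so leaving the exon out shifts the frame. In the sequence joined across the skipping junction the first in-frame stop, TAA, ended 14 bases past the junction. The frame then held 206 codons before the stop, against 798 with the exon, and the stop lay 1427 nt before the last exon junction, well past the 50 nt of the decay rule. The retained intron also breaks the frame by length, with a remainder of 1. Its sequence was not used here. The exon is shown because it has the largest number of SRSF3 motif matches of the 5, with its matches to CATC or to the pentamers named below in capitals. The skipping junction is shown with the last 18 bases of the exon before it and the stop codon in capitals.
Brd2 exon 6: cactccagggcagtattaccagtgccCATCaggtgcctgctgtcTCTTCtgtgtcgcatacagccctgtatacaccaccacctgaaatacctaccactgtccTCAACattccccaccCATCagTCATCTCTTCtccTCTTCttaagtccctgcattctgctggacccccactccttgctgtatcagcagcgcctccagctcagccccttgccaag
Brd2 skipping junction: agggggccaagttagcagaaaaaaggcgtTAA

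Brd2 was the only gene of the 5 with rows in both tables, and the second row concerns another intron. Per the authors' deposited table by junction usage, 3 acceptors were joined to the donor of the exon after the skipped one, with changes in PSI, AAV-Cre minus AAV-GFP, of 0.036 at position 34114478, -0.066 at 34114503 and 0.030 at 34114650 (1 q-value for the event, 0.0337). The event passed the q-value limit of 0.05 but no acceptor moved by the 0.1 used here to call a change, and the group levels of PSI are not in that table. The first acceptor is the one of the coding transcripts. The others add 25 nt and 172 nt to the exon, each with a remainder of 1, and each is used by 1 vM21 transcript annotated as subject to nonsense-mediated decay. Read from the Brd2 start codon, the 25-nt extension led to a TGA that begins at base 43 of the extended exon, 1046 nt before the last junction. The 172-nt extension led to a TAG that begins at its base 4, 1232 nt before the last junction. Both are extensions of the poison kind, and their changes had opposite signs.
The acceptors are shown with 30 intron bases before and 50 exon bases after the splice site, with the AG that ends the intron and the premature stop in capitals.
Acceptor 34114478: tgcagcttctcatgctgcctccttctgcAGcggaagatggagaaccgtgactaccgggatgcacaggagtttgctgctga
Acceptor 34114503: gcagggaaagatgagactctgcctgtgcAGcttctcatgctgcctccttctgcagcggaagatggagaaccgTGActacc
Acceptor 34114650: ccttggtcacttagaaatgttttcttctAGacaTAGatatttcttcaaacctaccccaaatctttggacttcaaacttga
The windows lie at chr17:34114429-34114508, chr17:34114454-34114533 and chr17:34114601-34114680 (mm10, minus strand). The window of the 25-nt extension also contains the first acceptor, since the AG of the coding exon lies within it.

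**Figure D1:**
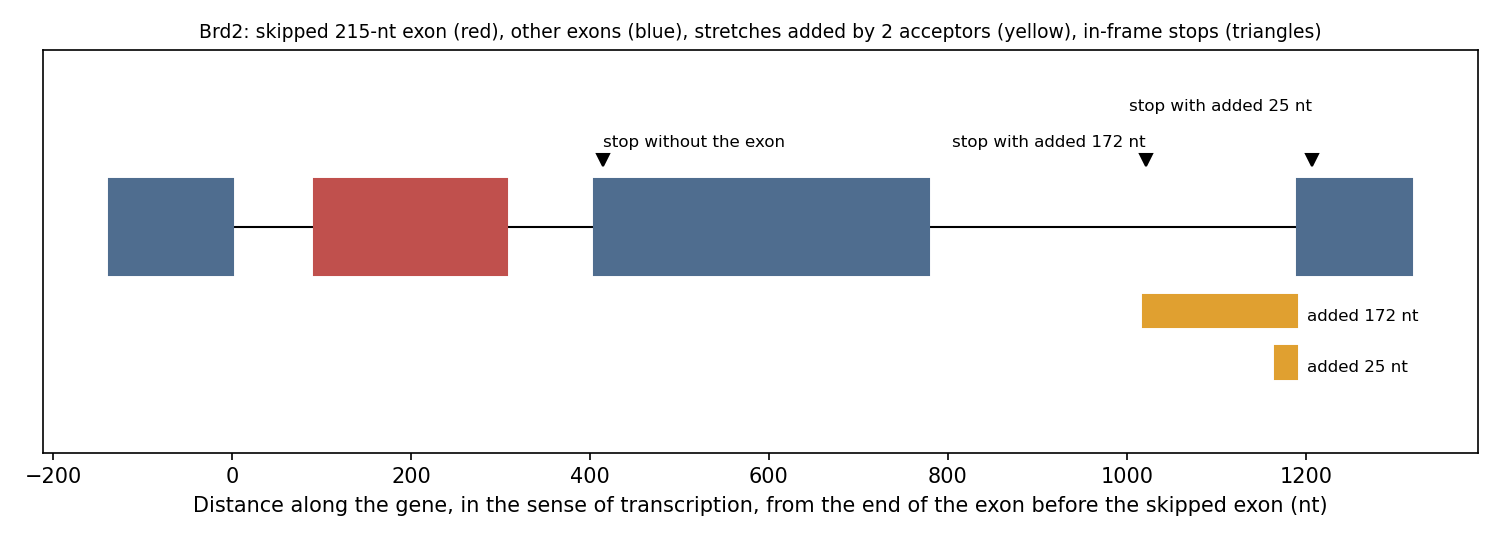
Exons of Brd2 around the skipped exon, drawn to scale in nt from the end of the exon before it. The 215-nt exon is red, the stretches of 25 and 172 nt added by the 2 other acceptors are yellow, and triangles mark the first in-frame stop of each altered reading.

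BRD8 is a bromodomain subunit of the TIP60 (NuA4) complex, which acetylates histones and exchanges histone variants. Its exon 9 of 22 (chr18:34610410-34610628, mm10, minus strand, 219 nt, coding) went the same way as that of Brd2, from a more balanced start. The junction from this exon to the next took a PSI of 0.729 with GFP and 0.365 with Cre, per the authors' deposited table. The junction that passes over the exon took 0.2 with GFP and 0.625 with Cre, per the authors' deposited table, so the form that dominates was exchanged between the groups. Retention of the intron that follows the exon had 0.073 with GFP and 0.009 with Cre. With the intron left aside, inclusion was 0.785 with GFP and 0.369 with Cre. The authors' deposited table gives expected changes that are smaller than these differences, 0.393 for skipping, -0.242 for inclusion and -0.013 for the intron, against differences between the group values of 0.425, -0.364 and -0.064.

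Of 4 vM21 coding transcripts that span the Brd8 exon, 3 hold it. Its 219 nt are 73 codons, from codon 215 to codon 287 of the 22-exon form, and it begins at a codon boundary. Leaving it out gave an open frame of 878 codons against 951, with the same stop in the last exon. The table lists the retained intron as 312 nt (34609950 to 34610261), where an annotated transcript with a longer exon begins. To the coding exon itself the intron spans 460 nt, a remainder of 1.

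KDM1A, also called LSD1, removes methyl groups from lysine 4 of histone H3 and works in the CoREST complex. Kdm1a was the only gene of the 5 in which inclusion was higher in AAV-Cre. Exon 3 of the 20-exon form (chr4:136582040-136582099, mm10, minus strand, 60 nt, coding) was joined from the exon before it at a PSI of 0.476 with GFP and 0.785 with Cre, per the authors' deposited table. The junction that passes over it took 0.523 with GFP and 0.2 with Cre, per the authors' deposited table, so forms with and without the exon were near balance in AAV-GFP, and the longer form dominated in AAV-Cre. A further junction, to a 76-nt exon (chr4:136590536-136590611) that overlaps no vM21 exon of the gene, took 0.001 with GFP and 0.015 with Cre. Its expected change in the authors' deposited table was 0.000, and its length has a remainder of 1.

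The 60-nt exon of Kdm1a adds 20 codons, and the frame held 873 codons with the exon and 853 without. It enters after the first base of codon 174, in the N-terminal part of the protein. Among 3 vM21 coding transcripts that span it, 1 holds it. The exon is shown with its motif matches, ACTTC and CATC, in capitals.
Kdm1a exon 3: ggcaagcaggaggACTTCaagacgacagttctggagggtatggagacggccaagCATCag

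**Figure D2:**
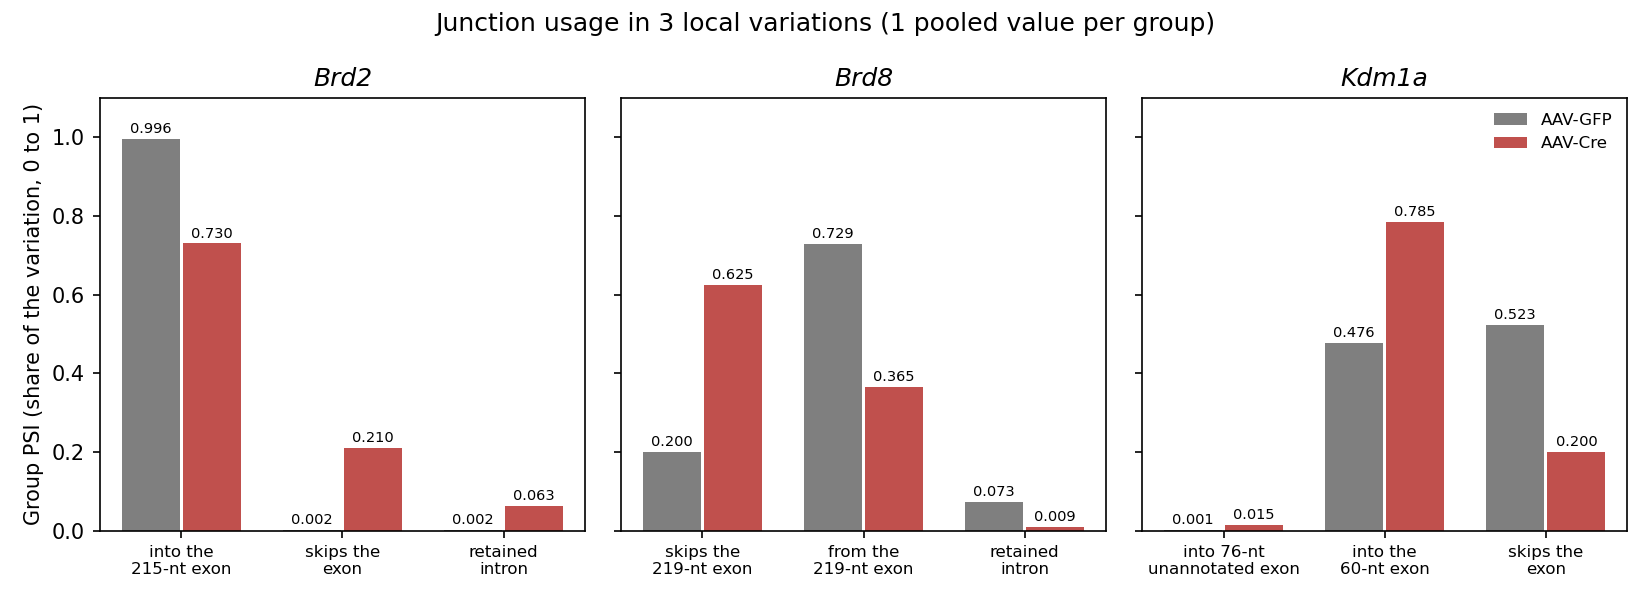
Group PSI (share of the variation, 0 to 1) of each junction or intron in the 3 local variations, 1 pooled bar per group without error bars, since the table gives no values per library. Skipping of the exon is higher in AAV-Cre in Brd2 (0.002 to 0.210) and Brd8 (0.2 to 0.625) and lower in Kdm1a (0.523 to 0.2).

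All 3 local variations of these genes had a junction with an expected change of at least 0.2, but 95.2% of the variations in the table do, so nothing is read from that count. By size of the largest change Brd8 ranked 306, Kdm1a 428 and Brd2 637 among all 862 variations. They ranked 110, 178 and 309, in the same order, among the 439 variations outside windows of 100 kb that hold 8 or more variations. Their changes were thus not among the largest of either list. The authors' deposited table also has a probability per junction that the change is at least 0.2. It was 0.931 for skipping in Brd8 and 1.000 for the other junctions and introns of the 3 genes, among them the Kdm1a junction to the 76-nt exon with a change of 0.000. All 4573 junctions in the table with a change under 0.05 were also listed at 0.95 or more, so the column cannot be read as headed and was not used to call changes. No junction-usage event overlapped any of the 3 variations by coordinates, so each rests on the first table alone.

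MTA1 is a subunit of the NuRD complex, which joins histone deacetylation to nucleosome remodelling. By junction usage, exon 18 of its 21 exons (chr12:113133541-113133576, mm10, plus strand, 36 nt, coding) changed by -0.533, AAV-Cre minus AAV-GFP, with a q-value of 0.0124 in the authors' deposited table. Inclusion was thus lower in AAV-Cre, but group levels of PSI are not in that table. The exon adds 12 codons and enters after the first base of codon 593. The frame held 715 codons with it and 703 without, and 3 of 5 coding transcripts in vM21 hold it. It is shown because it is the shortest of the 5 exons and nothing is in capitals, as none of the motif letters occur in it.
Mta1 exon 18: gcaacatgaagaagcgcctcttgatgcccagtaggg

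SMC5 is a core subunit of the SMC5/6 complex, a ring of the cohesin and condensin family that acts in DNA repair and in the upkeep of chromosomes. Exon 19 of its 25 exons (chr19:23215155-23215199, mm10, minus strand, 45 nt, coding) changed by -0.643 with a q-value of 0.00955 in the authors' deposited table. This was the largest of the 16 cassette exon changes called there, and rank 3 by size among all 131 listed cassette exons. Mta1 was rank 5 of the 16 and rank 11 of the 131. The Smc5 exon fills 15 codons, 842 to 856, starts at a codon boundary and left 1086 codons when dropped from the form of 1101. Only 1 of 3 vM21 coding transcripts that span it holds it. The exon is shown without capitals, as it too has none of the motif letters. Its acceptor, read from a vM21 transcript that keeps the intron before it, is shown as 40 intron and 10 exon bases (chr19:23215190-23215239, minus strand) with the AG in capitals. Motif letters were searched in the exons alone. They are not marked in acceptor sequences, where they can also occur, as TCTAC does in this one.
Smc5 exon 19: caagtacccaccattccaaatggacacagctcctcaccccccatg
Smc5 acceptor: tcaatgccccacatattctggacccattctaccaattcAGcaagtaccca
Of the 38 bases before that AG, 25 are C or T.

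**Figure D3:**
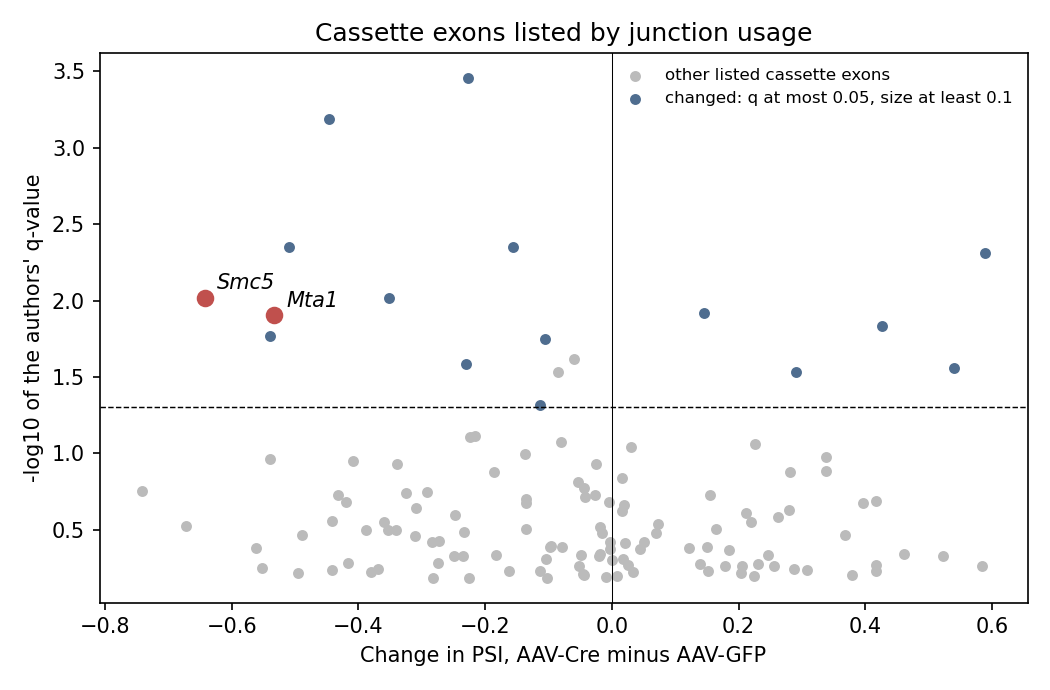
Change in PSI (AAV-Cre minus AAV-GFP) against -log10 of the authors' q-value for the 131 cassette exons listed by junction usage, with the q-value limit of 0.05 as a dashed line. Smc5 (-0.643) lies farthest to the left of the 16 called exons, and Mta1 (-0.533) lies close by.

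Of the 3 junction-usage events of these genes, 2 were called (q-value at most 0.05, size at least 0.1), the cassette exons of Mta1 and Smc5. Of all listed events 11.4% were called, 12.2% of the cassette exons and 7.84% of the alternative acceptor events, the class of the Brd2 event that was not called. The genes were chosen on these values, so the count is not read against those shares. No local variation overlapped the Mta1 or Smc5 event by coordinates, so these changes rest on the junction-usage table alone.

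The frame and make-up of the exons were not used to choose the genes. Lengths of 36, 45, 60 and 219 nt, in Mta1, Smc5, Kdm1a and Brd8, are multiples of 3, and in none of these did adding or dropping the exon bring a premature stop. Only Brd2, with 215 nt, departs from this, so 4 of 5 exons keep the frame. Among the changed cassette exons of other genes in both tables, the floxed gene Srsf3 included, 44 of 69 (63.8%) were multiples of 3, and among all internal exons of coding transcripts in vM21 40.4% were. The 69 were taken from local variations with exactly 2 junctions and no retained intron and from called junction-usage cassettes. The exons of Brd2, Brd8 and Kdm1a, whose variations hold a further junction or an intron, do not meet that rule, so the shares are set side by side only as a description. With 5 exons picked by hand no test of this share was made. Inclusion was lower in AAV-Cre in 4 of the 5 and in 44 of the other 69.

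In length the 5 exons form a short and a long group. Those of Mta1, Smc5 and Kdm1a are shorter than the median of 108 nt of the other changed cassette exons, and those of Brd2 and Brd8 are longer. The other exons with lower inclusion had a median of 123.5 nt. Of the exons here with lower inclusion, those of Mta1 and Smc5 are well under that median. Those of Brd2 (215 nt) and Brd8 (219 nt) are well over it. GC content ranged from 54.9% in Brd2 to 56.7% in Kdm1a. Their surroundings differ widely: the introns before and after the exon span 91 and 97 nt in Brd2, 503 and 460 nt in Brd8, 203 and 2220 nt in Mta1, 3205 and 414 nt in Smc5, and 10865 and 4835 nt in Kdm1a.

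**Figure D4:**
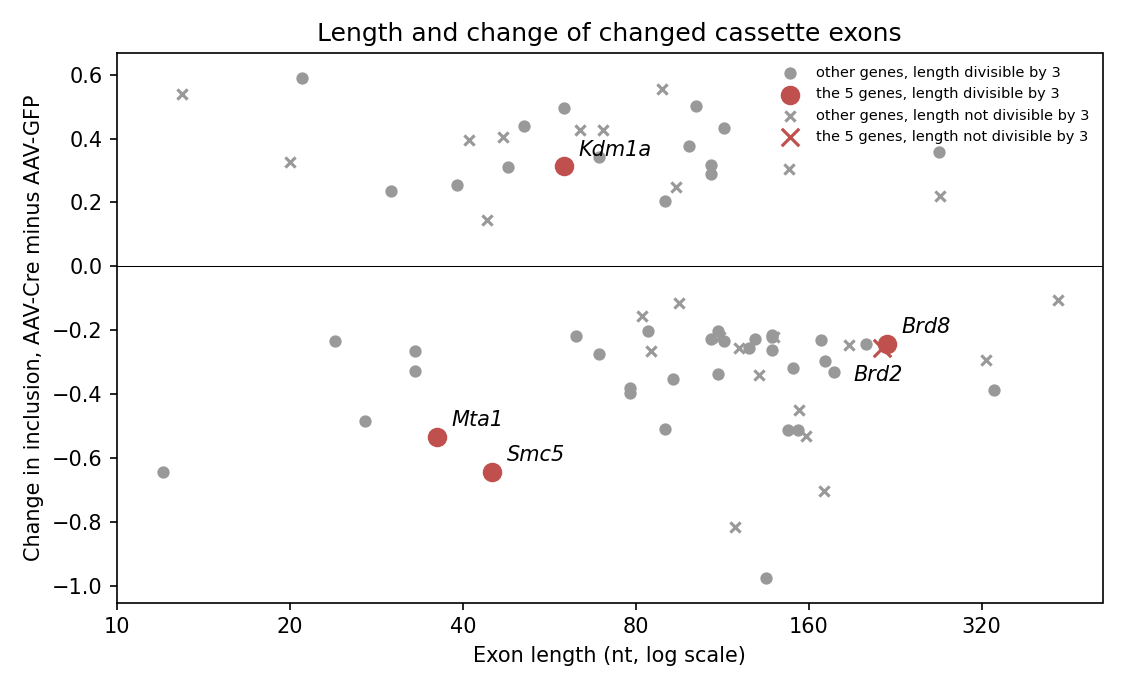
Exon length (nt, log scale) against change in inclusion (AAV-Cre minus AAV-GFP) for the 5 exons (red) and the 69 changed cassette exons of other genes (grey), with circles for lengths that are multiples of 3 and crosses for others. Brd2 is the only red cross, and Kdm1a the only red point above 0. Brd2, Brd8 and Kdm1a are drawn at the expected change of their inclusion junction among 3 alternatives (-0.242 in Brd8). Mta1 and Smc5 are drawn at the change by junction usage, so heights are not comparable between these measures.

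Letters that SRSF3 is known to bind were searched on the sense strand of each exon: CATC, and the pentamers with C in the second and the fifth place and A or T in the others. Pentamers that end in CATC contain that motif, so a place can match more than once. Brd2 had 3 matches to CATC and 5 to the pentamers, and Kdm1a had 1 of each, while the exons of Brd8, Mta1 and Smc5 had none. At least 1 match occurs in 90.3% of vM21 internal coding-transcript exons within 10% of the length of the Brd2 exon, in 90.9% for Brd8, 46.7% for Kdm1a, 28.7% for Mta1 and 37.5% for Smc5. A match is a string of letters and not a measured binding site, and its absence says only that these letters are not in the exon.

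The other genes of these complexes were followed through a list of 179 chromatin genes that leaves out the 5. Of the 179, 6 were listed among the local variations and all 6 had a change of at least 0.2, again against 95.2% of all listed. In the junction-usage table, made with JUM, 8 were listed at an unadjusted p below 0.05, and 0 passed the q-value and size limits, against 11.4% of all listed events, so the count of 0 among 8 is not read as a difference. Some of the 8, Stag2 and Mau2 among them, had no finite change and so could not be called. The same holds for 63 of all 498 listed events. Of the 17 partners of Brd8 in the TIP60 complex, Kat5, its acetyltransferase, had a cassette exon at -0.552 (q = 0.565), and Morf4l2 had a composite event of at most 0.055 (q = 0.438), per the authors' deposited table. Of the 12 genes of the LSD1-CoREST complex around Kdm1a, none was listed in either table. In the NuRD complex of Mta1, 1 of 14 genes changed, Mbd3, a subunit of the complex, at an acceptor that took 0.273 with GFP and 0.037 with Cre, per the authors' deposited table. A further gene of that complex was listed by junction usage with no finite change, so it could not be called. None of the 22 remodellers was listed. The share of all genes that are listed or called was not computed. Counts per complex, here and below, are thus not read as results, nor is absence of a complex read as a lack of change.

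Among 27 SMC complex genes Stag2 and Mau2 had a changed local variation. Stag2, a cohesin subunit, joined a 111-nt exon (chrX:42266366-42266476) at 0.387 with GFP and 0.054 with Cre, per the authors' deposited table. Mau2, a cohesin loader, used its most upstream donor at 0.334 with GFP and 0.858 with Cre, per the authors' deposited table. By junction usage, Stag2 and Mau2 each also had an event at the same place, listed with no finite change and not called. Its q-value was 0.455 in Stag2 and 0.538 in Mau2. Kdm5c, an H3 lysine 4 demethylase like Kdm1a though of another enzyme family, passed over a 138-nt exon (chrX:152270694-152270831) at 0.016 with GFP and 0.283 with Cre, per the authors' deposited table. Sin3b, a corepressor scaffold, joined its next exon at 0.920 with GFP and 0.558 with Cre, per the authors' deposited table. Zmynd11, a bromodomain protein, joined a 162-nt exon at 0.589 with GFP and 0.827 with Cre, per the authors' deposited table, and passed over it to join one of 78 nt at 0.408 with GFP and 0.135 with Cre. The expected change was 0.136 for the junction to the 162-nt exon and -0.222 for that to the 78-nt exon. Only the junction to the 78-nt exon thus reached the size of 0.2. The share of the junction that uses the named exon was thus lower in AAV-Cre for Stag2, Kdm5c and Sin3b and higher for the 162-nt exon of Zmynd11.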

How the data were processed

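Per the labels' protocols, stranded mRNA libraries were sequenced as paired ends. The submitters' processing notes name FastQC, STAR and the build mm10. Per the file headers, the first table has VOILA's columns (MAJIQ output). It holds the authors' expected PSI of each group, from 0 to 1, and an expected change, which the values show to be GFP minus Cre and which was reversed here. It also holds the authors' probability of each change, which was not used to call changes. Its source and target tags follow the genome, so for these minus-strand genes directions were taken from the strand. The second table, made with JUM, lists events at p below 0.05 with the authors' p-values, q-values and changes, per the file headers. It gives exon starts 1 less than vM21, and 1 was added. The sources used here give no versions of these tools. A local variation was called at a change of at least 0.2, and a junction-usage event at a q-value of at most 0.05 and a change of at least 0.1.

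Exons, frames and sequences came from GENCODE vM21 (mm10) transcripts. Each altered transcript was built from the coding form with the most exons and read from its annotated start. The annotated stop was recovered in 17 of 17 coding transcripts checked, and stop finding was tested on simulated data. Sequence of the Brd8 exon is not shown. Named genes were the 5, Srsf3, and up to 10 changed genes of the chromatin list by size. Kat5 and Morf4l2, listed partners of Brd8 that were not called, were named in addition after their values were seen. Other thresholds, ways of counting and motifs were tried, with their effect given in the closing section. Genes and lists were chosen with earlier results of these data known. Computation used Python 3.11.15, numpy 2.4.6 and matplotlib 3.10.9.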

Additional observations from a re-analysis of the deposited data

How the results depend on the processing

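No paired analysis was possible because neither table holds values per library, and for the same reason no library could be left out. The 3 changed local variations stayed 3 at a size of at least 0.1, by the difference of the group values and with shared junctions counted once, and were 2 at a size of at least 0.3, where Brd2 was lost. The 2 changed junction-usage events stayed 2 at a q-value of at most 0.1, with no q-value limit and at a size of at least 0.3. None of these settings could move that count. The Brd2 event already passed the q-value limit and failed on size alone. The changes of Mta1 (-0.533) and Smc5 (-0.643) exceed 0.3 in size. A size of at least 0.1 could likewise not lower the 3 local variations. These counts recut the values that chose the genes and are a description only. Of the 179 other chromatin genes 6 changed, 9 did with no q-value limit on junction usage, and 3 did at a local change of at least 0.3. The share of all listed variations or events that pass was not computed at any of these other limits. The counts at those limits, the loss of Brd2 at 0.3 included, are thus not read as a difference from other listed genes. The count of 4 frame-keeping exons stayed 4, but of 8, once the unannotated Kdm1a exon and the Brd2 extensions were added. The 2 exons with a motif match were 2 with CATC alone and with the pentamers alone. Depth per library is unknown, so no limit of detection can be given.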
